A study of Mus musculus with 8 samples.

Results

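Xbp1 and 9 genes that serve protein folding in the endoplasmic reticulum (ER) were followed in the livers of 18-day-old mice. The 10 genes were taken by symbol: the transcription factor Xbp1, the chaperones Hspa5, Hsp90b1 and Calr, the co-chaperones Dnajc3, Dnajb9 and Sdf2l1, the disulfide isomerases Pdia4 and Creld2, and the degradation factor Herpud1. The platform annotation assigned 12 of the array's 25697 probes to 9 of them, and no probe was named Sdf2l1, which is not analysed here. Of the 12 probes, 11 were above background on enough arrays to be tested, and each of the 9 genes had at least 1 of these, among 8255 features tested in all.

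The mice were Cic-L-/- or wildtype. Both groups were C57BL, both were 18 days old and both gave total RNA from liver, with 4 samples in each group and 1 single-colour Illumina bead array for each sample. Capicua, encoded by Cic, represses transcription, and Cic-L denotes the longer of its protein forms. The sources used here give neither the kind of allele nor whether each sample is a separate animal. The p-values therefore describe only how these samples scatter, and part of that scatter may be technical. The series addresses what capicua does in metabolism.

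Proteins that a liver cell secretes are folded in the ER. Hspa5 (BiP) holds the stress sensors IRE1, PERK and ATF6 in check, and unfolded proteins draw it away from them. IRE1 then cuts the Xbp1 mRNA, whose spliced form encodes an active factor, and XBP1 and ATF6 turn on genes for chaperones, folding enzymes and the removal of misfolded proteins. Hepatocytes, which make most plasma proteins, have a large ER, and in mouse liver XBP1 is also known for its part in lipid synthesis.

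Factors of this response are known to bind the ER stress element, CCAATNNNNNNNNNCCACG, and a second form, made of ATTGG, 1 base of any kind and CCACG. The promoters of the 10 genes were searched for both, on both strands, from 250 bases before to 50 after the start in RefSeq's annotation of GRCm38.p6, with all 10 genes matched. The first element was present in 5 genes (Hspa5, Hsp90b1, Dnajc3, Calr and Creld2) and the second in Herpud1, against 0.119% and 0.037% of 32851 promoters of all genes. The 10 genes were chosen for their known part in the ER, so this contrast is a description and not independent support. A further motif, TGACGTGG, was in 0 of the 10 and in 0.676% of all promoters. The 250 bases before the start are shown for the 6 genes that hold an element, because they cover both genes whose signal was lower in Cic-L-/- liver and genes that did not pass the test. Capitals mark the elements, and each sequence is given in the direction of its gene.
Hspa5, chr2:34771840-34772089, plus strand: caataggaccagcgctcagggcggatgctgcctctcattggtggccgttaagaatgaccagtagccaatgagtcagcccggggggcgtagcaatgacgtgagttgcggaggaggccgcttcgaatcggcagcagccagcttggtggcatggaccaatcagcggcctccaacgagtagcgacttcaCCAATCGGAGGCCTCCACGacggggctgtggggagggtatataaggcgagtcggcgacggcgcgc
Dnajc3, chr14:118937682-118937931, plus strand: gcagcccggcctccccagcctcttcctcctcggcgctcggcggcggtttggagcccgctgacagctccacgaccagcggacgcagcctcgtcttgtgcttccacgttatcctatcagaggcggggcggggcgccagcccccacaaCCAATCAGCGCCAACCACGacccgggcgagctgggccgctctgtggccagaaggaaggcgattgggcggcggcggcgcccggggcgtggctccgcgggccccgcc
Creld2, chr15:88819396-88819645, plus strand: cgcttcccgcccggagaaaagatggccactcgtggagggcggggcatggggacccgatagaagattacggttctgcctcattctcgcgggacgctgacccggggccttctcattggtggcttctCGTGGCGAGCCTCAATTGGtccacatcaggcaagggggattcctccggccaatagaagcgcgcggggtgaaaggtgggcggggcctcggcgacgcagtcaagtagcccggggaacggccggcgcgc
Calr, chr8:84846932-84847181, minus strand: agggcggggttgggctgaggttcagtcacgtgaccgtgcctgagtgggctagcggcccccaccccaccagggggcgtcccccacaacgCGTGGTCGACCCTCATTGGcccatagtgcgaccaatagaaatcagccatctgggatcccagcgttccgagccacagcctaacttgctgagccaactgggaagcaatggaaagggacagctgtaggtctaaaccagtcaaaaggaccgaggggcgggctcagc
Hsp90b1, chr10:86705445-86705694, minus strand: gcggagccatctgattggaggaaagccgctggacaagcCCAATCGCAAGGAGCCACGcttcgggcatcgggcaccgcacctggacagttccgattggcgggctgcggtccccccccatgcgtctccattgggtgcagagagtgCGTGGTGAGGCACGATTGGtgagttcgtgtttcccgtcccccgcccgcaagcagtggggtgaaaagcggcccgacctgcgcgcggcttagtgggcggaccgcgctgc
Herpud1, chr8:94386179-94386428, plus strand: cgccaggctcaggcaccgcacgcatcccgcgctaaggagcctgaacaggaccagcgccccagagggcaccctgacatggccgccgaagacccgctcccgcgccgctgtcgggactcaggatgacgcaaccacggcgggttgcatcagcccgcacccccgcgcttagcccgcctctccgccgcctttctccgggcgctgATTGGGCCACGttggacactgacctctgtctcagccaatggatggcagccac
Counted back from the start, the element began at base -65 in Hspa5, -105 in Dnajc3, -126 in Creld2 and -162 in Calr. Hsp90b1 held it at -212 and again at -107, and the Herpud1 element began at -52. In Creld2, Calr and the nearer copy of Hsp90b1 it reads on the opposite strand, so it appears with CGTGG first and ATTGG last. The searched window of Xbp1, Dnajb9, Pdia4 and Sdf2l1 did not hold the letters of any of the 3 motifs. A match in letters is a description and not a measured binding site, and the array files name no genome build.

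All 9 measured genes had a lower mean signal in Cic-L-/- liver, with 6 that fell at an adjusted p under 0.05: Xbp1, Hspa5, Dnajc3, Dnajb9, Calr and Creld2. None of the 9 rose. Among all 8255 features 2.9% were called lower, 4.49% higher, and 49.6% had a negative change. The median log2 change over the 9 genes was -0.72, against 0.00 over all features. The genes were chosen with earlier results of these data known, so these contrasts with all features are not independent support. The falls of Xbp1, Hspa5 and Dnajc3 held under all 16 other settings tried, whereas those of Dnajb9, Calr and Creld2 did not. Without Cic-L-/- replicate 2, 3 of the 9 genes were called, namely Xbp1, Hspa5 and Dnajc3. Levels are normalised log2 signals, differences are Cic-L-/- minus wildtype on the same scale, and adjusted p-values are those of limma over all features.

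**Figure D1:**
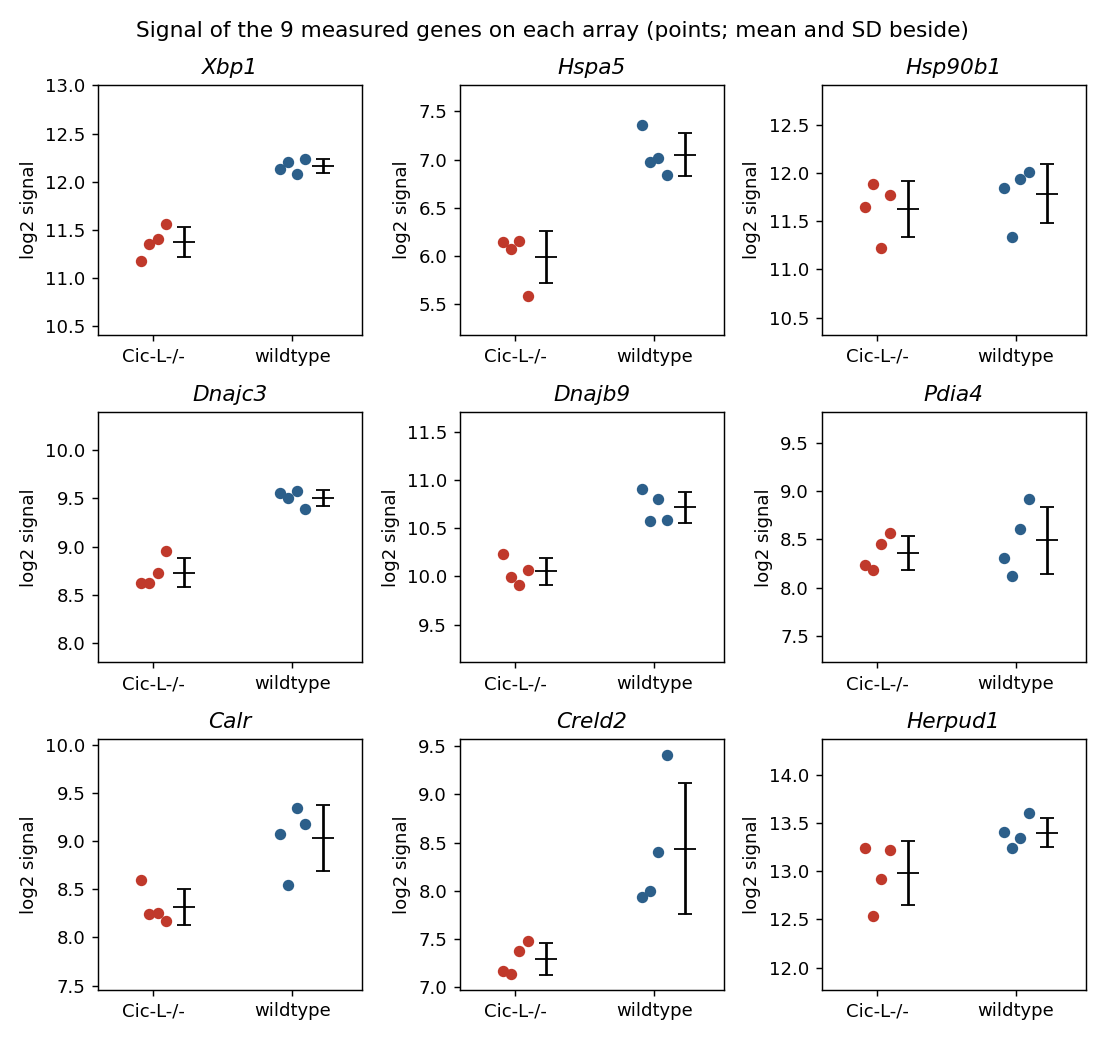
Normalised log2 signal of the 9 measured genes on each array, with Cic-L-/- left of wildtype, 1 point per array (replicates 1 to 4 from left to right) and the mean with its SD beside the points. Every panel spans the same log2 distance. For Xbp1, Hspa5, Dnajc3, Dnajb9 and Creld2 all 4 Cic-L-/- points lie below all 4 wildtype points.

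Xbp1, the transcription factor itself, had log2 signals of 11.18, 11.36, 11.40 and 11.56 in Cic-L-/- replicates 1 to 4, against 12.13, 12.21, 12.08 and 12.23 in the wildtype replicates. The groups did not overlap, and the wildtype arrays lay within a narrow range. Xbp1 fell 1.73-fold (difference -0.79 ± 0.14, SE, n = 4 arrays per group, limma adjusted p = 0.00675). The single Xbp1 probe is not placed on the transcript here, so the spliced and unspliced forms cannot be told apart.

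Hspa5, or BiP, is the main chaperone of the ER lumen and the regulator of the 3 sensors. Its log2 signals were 6.15, 6.07, 6.15 and 5.59 in Cic-L-/- liver, against 7.36, 6.98, 7.02 and 6.83 in wildtype liver. The groups did not overlap, and Cic-L-/- replicate 4 was the lowest array. Hspa5 fell 2.08-fold (-1.06 ± 0.18, SE, limma adjusted p = 0.00524). The one probe for this gene was dim: its intensity before any correction was 175 to 217 on Cic-L-/- arrays and 199 to 271 on wildtype arrays, while the 95th percentile of the control rows was 159 to 163 on Cic-L-/- arrays and 131 to 157 on wildtype arrays. Uncorrected intensities of the groups therefore overlapped, and Cic-L-/- arrays also had the higher background. In the authors' deposited log2 table, which is normalised but not background-corrected, the values were 7.36 to 7.55 in Cic-L-/- liver and 7.85 to 8.14 in wildtype liver, without overlap, with a difference of -0.47 in place of -1.06 (limma adjusted p = 0.00729).

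The other large chaperones of the ER lumen were Hsp90b1 (GRP94), a partner of Hspa5, and Calr (calreticulin), which binds calcium and folds glycoproteins. Calr had log2 signals of 8.59, 8.24, 8.25 and 8.17 in Cic-L-/- liver, against 9.08, 8.55, 9.34 and 9.18 in wildtype liver. Only wildtype replicate 2, at 8.55, lay below the highest Cic-L-/- array. Calr fell 1.65-fold (-0.72 ± 0.19, SE, limma adjusted p = 0.0407), but this call was lost in 9 of the 16 other settings. They included leaving out Cic-L-/- replicates 2, 3 and 4 and wildtype replicates 1, 3 and 4, 1 at a time (adjusted p up to 0.105), median centring (0.148), no detection filter (0.0634) and the replicate block (0.0588). Hsp90b1 had log2 signals of 11.65, 11.88, 11.22 and 11.77 in Cic-L-/- liver, against 11.85, 11.34, 11.94 and 12.01 in wildtype liver. Its groups overlapped widely, with 1 low array in each. The difference of -0.15 had a 95% interval of -0.58 to 0.28 (limma adjusted p = 0.696). A fall of the size seen for Xbp1 lay outside this interval, while falls down to -0.58 and rises up to 0.28 lay inside it.

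Dnajc3 (p58IPK) and Dnajb9 (ERdj4) are J-domain co-chaperones that work with Hspa5. Dnajc3 had log2 signals of 8.62, 8.63, 8.73 and 8.95 in Cic-L-/- liver, against 9.56, 9.51, 9.58 and 9.39 in wildtype liver. The groups did not overlap, and Dnajc3 fell 1.71-fold (-0.78 ± 0.14, SE, limma adjusted p = 0.00741). Dnajb9 had log2 signals of 10.23, 9.996, 9.91 and 10.06 in Cic-L-/- liver, against 10.90, 10.57, 10.80 and 10.59 in wildtype liver. These groups did not overlap either, and Dnajb9 fell 1.59-fold (-0.67 ± 0.15, SE, limma adjusted p = 0.0192). The Dnajb9 call was lost without Cic-L-/- replicate 2 (adjusted p = 0.0568), without wildtype replicate 1 (0.0599) and with median centring (0.0940). A second Dnajb9 probe was not above background on any of the 8 arrays.

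Pdia4 and Creld2 are enzymes with thioredoxin-like or isomerase activity that handle disulfide bonds. Creld2 had log2 signals of 7.16, 7.14, 7.37 and 7.48 in Cic-L-/- liver, against 7.93, 7.998, 8.40 and 9.41 in wildtype liver. The groups did not overlap, the Cic-L-/- arrays lay close together, and wildtype replicate 4 stood above the other 3. Creld2 fell 2.21-fold (-1.15 ± 0.28, SE, limma adjusted p = 0.0316), and without wildtype replicate 4 the difference was -0.82 (adjusted p = 0.0288). The call was lost without the detection filter (0.0671) and when wildtype replicate 3 or Cic-L-/- replicate 1, 2 or 3 was left out (adjusted p up to 0.0839). A second Creld2 probe ran from 6.61 to 7.03 in Cic-L-/- liver and from 7.09 to 8.48 in wildtype liver, also without overlap, and did not pass in a fit with 1 row per probe (-0.80, adjusted p = 0.101). Pdia4 had log2 signals of 8.24, 8.19, 8.45 and 8.57 in Cic-L-/- liver, against 8.30, 8.13, 8.61 and 8.92 in wildtype liver. Its groups overlapped, and the difference of -0.13 (95% interval -0.54 to 0.28, limma adjusted p = 0.740) turned positive with median centring (0.07) and without wildtype replicate 4 (0.02).

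Herpud1, an ER membrane protein that assists the degradation of misfolded proteins, had 2 bright probes. The one used for the gene gave log2 signals of 13.24, 12.54, 12.92 and 13.22 in Cic-L-/- liver, against 13.41, 13.24, 13.34 and 13.60 in wildtype liver. Of the Cic-L-/- arrays, 3 lay below all wildtype arrays and replicate 1 equalled wildtype replicate 2, their lowest. The difference was -0.42 (95% interval -0.81 to -0.02) and did not pass after adjustment (limma adjusted p = 0.198, unadjusted p = 0.0401), while 22.5% of all features had an unadjusted p under 0.05. On the other probe the values were 12.61 to 13.06 in Cic-L-/- liver and 13.08 to 13.31 in wildtype liver, so that the groups did not overlap, but its difference of -0.43 did not pass either (adjusted p = 0.129 in the fit with 1 row per probe).

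**Figure D2:**
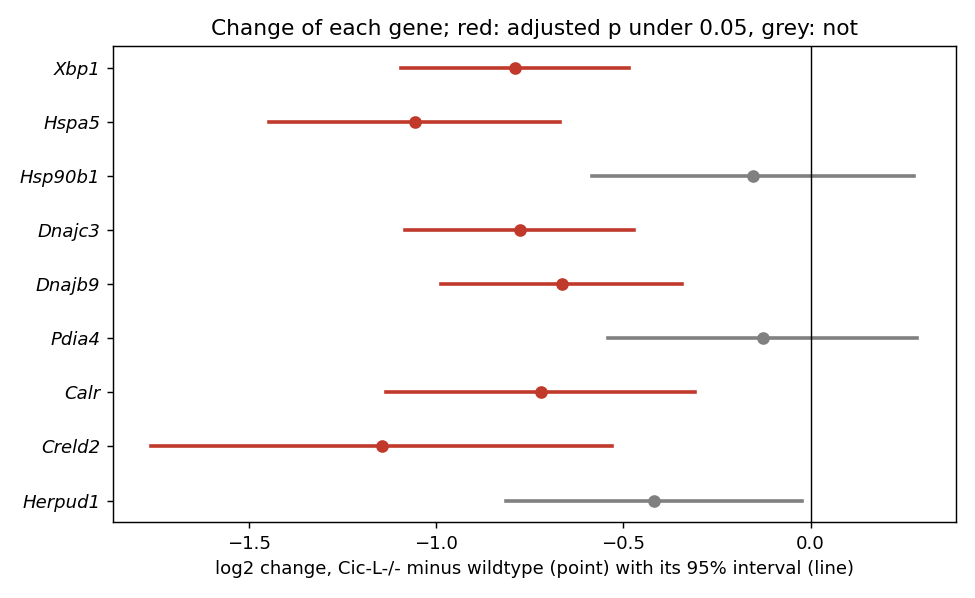
Log2 change of each measured gene, Cic-L-/- minus wildtype (points), with its 95% interval from limma (lines). From top to bottom the genes are Xbp1, Hspa5, Hsp90b1, Dnajc3, Dnajb9, Pdia4, Calr, Creld2 and Herpud1. Red marks an adjusted p under 0.05, as for 6 genes whose changes run from -0.67 (Dnajb9) to -1.15 (Creld2). Grey marks Hsp90b1, Pdia4 and Herpud1.

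Seen array by array, 5, 7, 8 and 7 of the 9 genes lay below the lowest wildtype array in Cic-L-/- replicates 1 to 4, and 0 lay above the highest. The median distance from the wildtype mean over the 9 genes was -0.48, -0.81, -0.78 and -0.61 in these 4 arrays, against 0.04, -0.16, 0.07 and 0.14 in wildtype replicates 1 to 4. Each Cic-L-/- array was thus lower than each wildtype array in this median. For 5 of the 9 genes the groups did not overlap, against 15.1% of all features in either direction and 6.55% with Cic-L-/- below wildtype. The choice of the genes with earlier results known limits this contrast as well.

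The rest of the ER machinery was read from 6 lists of 155 further genes, of which 142 had a named probe, 114 were tested and 28 were too dim. Of the 114, 3 fell (2.63%), 0 rose and 111 did not pass. Their median change was -0.14, and 74 of the 114 were negative. The share that fell lies near the background of 2.9% for falls, and the share called in either direction is below the 7.39% of all features. With median centring 48 of the 114 were negative and their median was 0.06, while the median of all features was 0.17 and that of the 9 genes was -0.54.

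Over all features 7.39% were called in either direction. Among the sensors and related factors, 0 of the 7 tested genes other than Xbp1 were called (median -0.39). Atf6b, a relative of the sensor ATF6, differed by -0.67 (limma adjusted p = 0.0905) and Eif2ak3, which encodes PERK, by -0.39 (adjusted p = 0.439). Ern1, which encodes the IRE1 sensor that splices Xbp1, was too dim to test. Of 10 further chaperones and co-chaperones 0 passed (median -0.28), and 7 others, among them Hyou1, Canx and Manf, were too dim.

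Over all features 2.9% were called lower, and among 16 other genes of disulfide bond formation 1 fell. This was Ero1b, an oxidase that recharges the disulfide isomerases, with log2 signals of 6.69, 7.19, 7.23 and 7.20 in Cic-L-/- liver, against 8.23, 7.97, 8.46 and 8.63 in wildtype liver. The groups did not overlap, and Ero1b fell 2.37-fold (-1.24 ± 0.19, SE, limma adjusted p = 0.00280), a call kept under all 16 settings. Pdia3 (-0.49, adjusted p = 0.0837) and Pdia6 (-0.65, adjusted p = 0.102) did not pass, and neither did P4hb (-0.11, adjusted p = 0.714).

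Of 18 other genes of ER-associated degradation, 1 fell, beside 2.9% of all features. Os9, a lectin that delivers misfolded glycoproteins for degradation, had log2 signals of 8.43, 8.87, 8.69 and 8.33 in Cic-L-/- liver, against 9.53, 9.63, 9.48 and 9.54 in wildtype liver. Os9 fell 1.95-fold without overlap of the groups (-0.96 ± 0.15, SE, limma adjusted p = 0.00416), also under all 16 settings. Syvn1, the ubiquitin ligase of this pathway, differed by -0.57 (adjusted p = 0.0510) and its partner Sel1l by 0.25 (adjusted p = 0.451).

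Entry into the ER and export from it were described by 2 longer lists. Over all features 2.9% were called lower and 7.39% in either direction. Of 31 genes of the translocon, signal peptidase and glycosylation, 1 fell: Srpr, the receptor of the signal recognition particle (1.88-fold, limma adjusted p = 0.0488), whose call was lost in 9 of 16 settings (highest adjusted p = 0.124). The median of that list was -0.05. Of 32 genes of ER-to-Golgi transport 0 passed (median -0.02), the smallest adjusted p-values being those of Copg1 (-0.40, adjusted p = 0.146) and Lman2 (-0.31, adjusted p = 0.305).

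**Figure D3:**
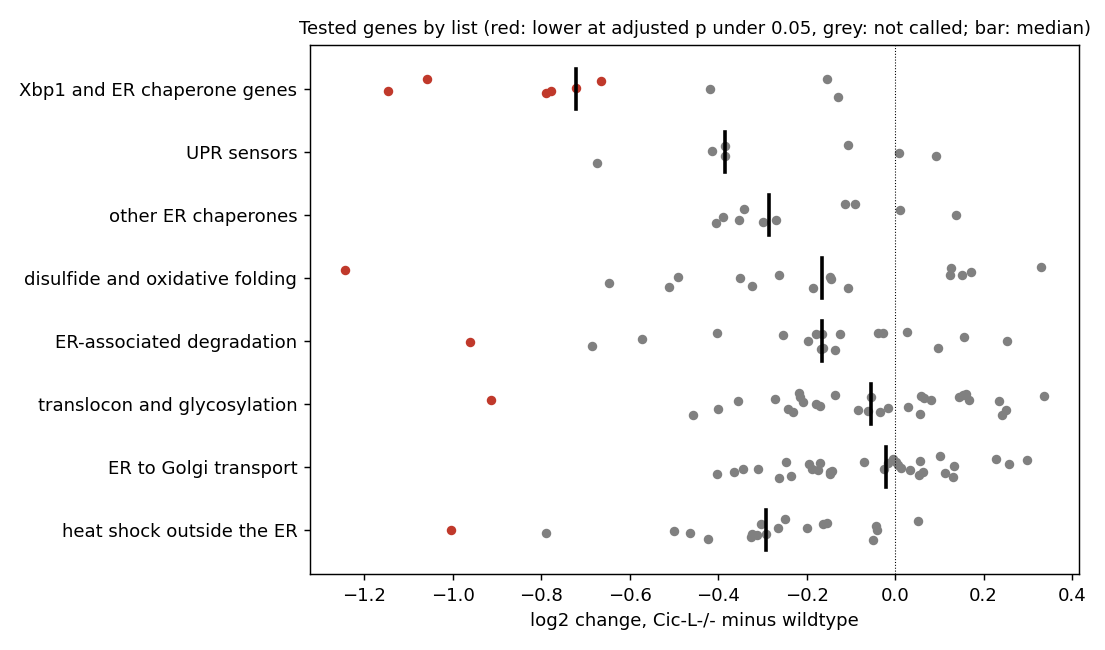
Log2 change, Cic-L-/- minus wildtype, of every tested gene in 8 lists (1 point per gene, spread vertically for legibility), with red for a fall at an adjusted p under 0.05, grey for no call and a black bar for the median. The 9 genes followed here are shown in the top row and left out of the rows below it, whose medians run from -0.39 for the sensors to -0.02 for ER-to-Golgi transport.

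Chaperones outside the ER, in the cytosol and mitochondria, gave 1 fall among 19 tested genes, that of Hsph1 (2.01-fold, limma adjusted p = 0.0246). Their median was -0.29, and 18 of the 19 differences were negative. Of all features 49.6% were negative and 2.9% were called lower. Hsp90aa1 differed by -0.79 (adjusted p = 0.0753) and Hspa8 by -0.50 (adjusted p = 0.129). The Hsph1 call was lost in 6 of 16 settings (highest adjusted p = 0.0741).

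In the PERK and ATF4 arm, another branch of the ER stress response, 2 of 10 tested genes fell and 2 rose. The shares over all features were 2.9% lower and 4.49% higher. Chac1, a glutathione-degrading ATF4 target, fell 4.28-fold (limma adjusted p = 0.00599) and Cebpb 1.80-fold (adjusted p = 0.0170, but 0.0513 without wildtype replicate 1), while Asns rose 2.74-fold (adjusted p = 0.00851) and Vldlr 5.09-fold (adjusted p = 2.62e-05). Atf4 itself (-0.40, adjusted p = 0.127) and Ddit3, which encodes CHOP (-0.68, adjusted p = 0.142), did not pass.

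The 5 named genes whose values over the 8 arrays lay closest to those of Xbp1, each centred on its wildtype mean, were Gpld1, Tex2, Ube2a, Cyb5b and Slc25a45. Their root mean square distance from Xbp1 was 0.0898, 0.0939, 0.105, 0.109 and 0.111 log2 units, and their falls ran from 1.60-fold for Gpld1 to 1.81-fold for Slc25a45. The Cyb5b call was lost when replicate 1 or 2 of Cic-L-/- liver or replicate 4 of wildtype liver was left out (adjusted p up to 0.0583), and that of Ube2a with median centring (0.0538). This is a description of likeness over 8 arrays, which includes the difference between the groups.

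The liver label was checked on hepatocyte genes: Apoa1 and Ttr averaged 15.05 ± 0.21 and 14.62 ± 0.26 in Cic-L-/- liver, against 14.86 ± 0.23 and 14.08 ± 0.21 in wildtype liver (SD, n = 4). Of 9 hepatocyte markers with a probe, 7 were above background on any array. Fgb (means of 4.56 in Cic-L-/- and 4.48 in wildtype liver) and Tat (4.40 and 4.52) were not on any. The Alb probe was dim (5.33 ± 0.51 in Cic-L-/- liver, 6.01 ± 0.54 in wildtype liver), so a dim probe, as for Hspa5, does not give the abundance of its transcript. The single Cic probe was above background on 0 of the 8 arrays (4.43 ± 0.12 in Cic-L-/- liver, 4.66 ± 0.18 in wildtype liver), and since it is not placed on the Cic transcript here it does not check the genotype. Between 38.7% and 43.5% of the probes were above background on an array.

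Other cell types were read beside these results, since in whole liver fewer cells of a type and less RNA per cell cannot be told apart. Of 8 tested macrophage genes 3 rose (Adgre1, C1qc and Marco) and of 10 neutrophil genes 3 rose (S100a9, Ltf and S100a8). Among all features 4.49% were called higher and 2.9% lower. The calls of Adgre1, S100a9 and Ltf held under all 16 settings, while Marco was lost in 7 of the 15 that tested it (adjusted p up to 0.0720), S100a8 in 5 of 16 (up to 0.0864) and C1qc without Cic-L-/- replicate 2 (0.0525). The summed uncorrected intensity, which includes a background that was higher on Cic-L-/- arrays (control medians of 139 to 142, against 114 to 136 in wildtype), was read for each list. That of the 9 macrophage markers was 5147 to 11780 in Cic-L-/- liver and 3790 to 4477 in wildtype liver, and that of the 10 neutrophil markers was 5182 to 9371 in Cic-L-/- liver and 3595 to 4535 in wildtype liver. Their part in the falls of the ER genes was not tested. Of 11 markers of plasma and B cells, cells with a large ER, 8 were above background on any array, and Jchain, Derl3 and Cd22 were not on any of the 8. Their summed intensity was 1847 to 2324 in Cic-L-/- liver and 1600 to 1805 in wildtype liver, and 1 of the 6 tested, Cd79a, rose, a call lost in 8 of 16 settings. Mzb1, a plasma cell ER gene, differed by 0.56 (adjusted p = 0.131) and Pou2af1 by -0.11 (adjusted p = 0.748), both above background on all 8 arrays. Of 15 markers of pancreatic acinar cells 7 were above background on any array, while Prss2, Try4, Try5, Try10, Cela3b, Cpa1, Cel and Zg16 were not on any. Their summed intensity was 3524 to 3754 in Cic-L-/- liver and 2483 to 2975 in wildtype liver, and 1 of the 4 tested, Cela2a, fell, a call lost in 11 of 16 settings. The other 3 did not pass: Pnliprp1 differed by 1.16 (adjusted p = 0.0532) and Spink1 by 0.51 (adjusted p = 0.0967), both without overlap of the groups, and Cela1 by -0.30 (adjusted p = 0.531). No hepatocyte (7 tested), erythroid (5), endothelial or stellate (13) or cholangiocyte (1) marker was called. Summed intensities in Cic-L-/- and wildtype liver were 158255 to 183465 and 129211 to 153287 for hepatocyte markers. For endothelial and stellate markers they were 18138 to 23726 and 14317 to 16414, and for cholangiocyte markers 740.9 to 761.3 and 597.7 to 740.1. Those of erythroid markers overlapped (19533 to 38645 and 23709 to 28675). Sums above all wildtype arrays were thus not particular to the immune and acinar lists. Ttr differed by 0.54 (limma adjusted p = 0.0890) and passed without background correction (0.0373), with offset 50 and with a variance trend.

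**Figure D4:**
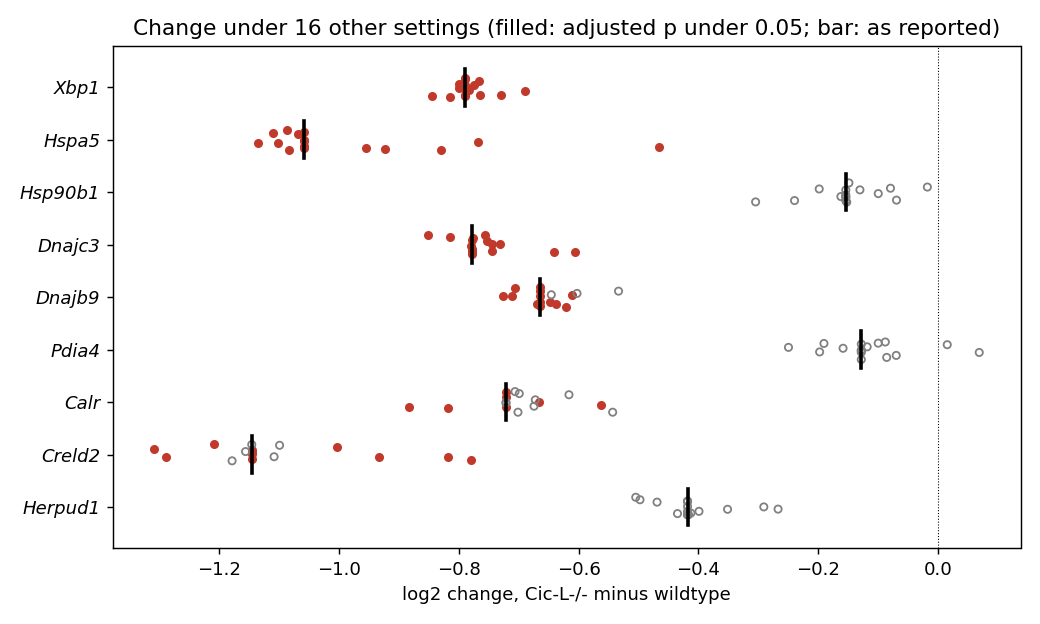
Log2 change of the 9 genes, Cic-L-/- minus wildtype, under 16 other settings (1 point per setting, spread vertically for legibility), with filled red points at an adjusted p under 0.05, open grey points otherwise and a black bar for the reported value. All points of Xbp1 (-0.85 to -0.69), Hspa5 (-1.13 to -0.47) and Dnajc3 (-0.85 to -0.61) are filled, and those of Pdia4 reach 0.07.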

How the data were processed

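The authors deposited bead-array intensity values without normalisation and a log2 table of the same 8 arrays. Per the values, the deposited log2 table is the quantile-normalised log2 of that intensity without background correction, since a recomputation differed by at most 5e-05. Scanner and image software were not given in the sources used here. Rows without an ID (1124), whose role no label gives, were taken as negative controls. Intensities were corrected with normexp on these rows (offset 16, which understates changes of dim probes), quantile-normalised and put on a log2 scale in R 4.3.3 with limma 3.58.1. A probe was kept if its detection p was under 0.05 on 4 or more arrays (10300 probes), and the brightest kept probe stood for its gene, giving 7637 named genes and 618 unnamed probes. Groups of 4 arrays were compared with limma's moderated two-sided test, with Benjamini-Hochberg adjustment over all 8255 features, and a call needs an adjusted p under 0.05. The steps were tested on simulated data. The number of arrays limits the precision. RefSeq's GRCm38.p6 tables served for names and promoters only.

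The members and lists were chosen with earlier results of these data known. Named were the members, the called genes of each list (the 2 with the smallest adjusted p where none was called), the 5 genes nearest to Xbp1, the called markers, and Alb, Ttr and Apoa1. Atf6b, Eif2ak3, Ern1, Hyou1, Canx, Manf, Pdia3, Pdia6, P4hb, Syvn1, Sel1l, Hsp90aa1, Hspa8, Atf4, Ddit3, Acnat2, Pnliprp1, Spink1, Cela1, Mzb1, Pou2af1, the markers not above background and Cic were named after their values were seen. Alternatives were no background correction, offset 50, median centring, no detection filter, detection on all 8 arrays, 1 row per probe, a variance trend, the replicate block and leaving out each array.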

Additional observations from a re-analysis of the deposited data

Results flagged for a closer look

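The 4 arrays of a group were compared for each probe of the 9 measured ER genes and of the other genes named by rule, in 76 sets. In 4 sets 1 array lay apart, its gap to the nearest other array divided by the range being above Dixon's 95% critical value, which chance gives in about 1 in 20 sets. Hspa5 in Cic-L-/- replicate 4 had a log2 signal of 5.59, while the other Cic-L-/- arrays had 6.07 to 6.15 (ratio 0.858). Ero1b in Cic-L-/- replicate 1 had 6.69, while the others had 7.19 to 7.23 (ratio 0.929). Chac1 in Cic-L-/- replicate 3 had 6.60, while the others had 8.23 to 8.36 (ratio 0.928). The second Dnajb9 probe, which was not above background, had 5.06 in wildtype replicate 3 and 4.48 to 4.55 in the other wildtype arrays (ratio 0.867). The 4 deviations lie on 4 different arrays, and the falls of Hspa5, Ero1b and Chac1 were called without any 1 of the 8 arrays.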

How the results depend on the processing

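Among the called genes that were named by rule, no direction turned in the settings run, which were 15 for Marco and 16 for the others. Acnat2 and the unnamed called features were not run under them one by one. Of the 9 measured ER genes, 3 to 6 were called lower when 1 array was left out, 4 with median centring or without the detection filter, and 5 with the replicate block. The further ER genes called lower numbered 3 as reported, 6 without background correction, 5 with offset 50, 6 with a variance trend, and 2 to 4 when 1 array was left out. All features called numbered 341 to 612 when 1 array was left out, against 610 with all arrays, and the count was more than 1.5 times lower on leaving out replicate 1 (343) or 2 (341) of Cic-L-/- liver, or replicate 1 (375), 2 (372) or 4 (380) of wildtype liver. With median centring 837 were called and 84.3% of them were higher in Cic-L-/- liver, against 60.8% as reported, and the median of all features moved to 0.17. The cause of these differences was not tested. With the replicate block 468 features were called, 3 of them further ER genes, and Calr was the member lost. Correlations between same-numbered arrays' deviations from their group means ran from -0.03 to 0.05, and 2 of 8 arrays correlated best with their own number. These values gave no sign that the numbers pair the samples, but with 4 arrays per group they cannot exclude it. Dim probes such as that of Hspa5 limit what can be said of the size of a change.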

Other observations

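Over all mouse genes in RefSeq's promoter table, 49 held either form of the ER stress element in the searched window, among them the 6 ER genes shown above. Of the other 43, 12 were tested on these arrays. Of these, 2 fell, 0 rose and 6 had a negative difference, with a median of -0.03. Over all features 2.9% fell, 4.49% rose and 49.6% had a negative difference. The 2 that fell were Ero1b and Acnat2, an acyltransferase gene, with mean log2 signals of 6.10 ± 0.42 for Cic-L-/- and 7.57 ± 0.33 for wildtype (SD, n = 4 each) and differed by -1.47 (limma adjusted p = 0.00348). This is a description of letters in promoters beside measured changes, and whether the elements were in use was not measured.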
